A study of Mus musculus with 12 samples.

Results

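The phospholipid flippases described here are Atp10b and 7 other P4-ATPase genes (Atp8a1, Atp8a2, Atp8b1, Atp9a, Atp9b, Atp11a and Atp11b) together with Tmem30a, which encodes the subunit that most of these pumps need. They were chosen by gene symbol in the deposited expression table, keeping for each gene the transcript cluster (the set of probes that an array summarises to 1 value) with the highest mean over all arrays. All 9 genes had 1 cluster each, out of 30077 genes with a symbol of their own. Atp10b was selected on its differences between CTRL and cultures given extracellular vesicles (EVs), as seen in earlier results of these same arrays, so its levels are a description without a test. The question behind the comparisons is how EVs released by microglia in distinct reactive states change gene expression in oligodendrocyte precursor cells (OPCs).

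All groups consisted of primary OPCs from C57Bl/6 mouse brains at postnatal day 2, captured with anti-CD140a beads, expanded for 48 h with PDGFAA and bFGF and then moved to differentiation medium with T3. About 4 h after that switch, CTRL cultures received medium alone and the others received EVs of primary microglia at a ratio of 2 donor microglia per OPC. Neither the number nor the protein of the EVs was quantified directly. The paper therefore leaves small differences in yield open, while citing its earlier work in which EV secretion was comparable. The i-EVs came from microglia exposed to pro-inflammatory cytokines, the IL4-EVs from microglia exposed to IL4, and the MSC-EVs from microglia exposed to the same cytokines in co-culture with mesenchymal stem cells, and ATP was used on all donor microglia to release the vesicles. RNA was collected at 24 h of differentiation and hybridised to Clariom D mouse arrays, 3 arrays per group and 12 in all. No group received EVs of unstimulated microglia, so CTRL differs from the other groups by the presence of EVs as well as by the state of their donor cells. The methods call the samples independent replicates, but no source says that separate cultures or litters stand behind them, and the p-values then reflect nothing beyond the scatter of these samples, possibly of technical origin. In such bulk RNA, fewer cells of a type and less RNA per cell cannot be told apart.

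P4-ATPases use ATP to move phospholipids from the outer or luminal side of a membrane to its cytosolic side. By this action phosphatidylserine and phosphatidylethanolamine are kept on the inner face of the plasma membrane, and the same pumps help to bend membranes where vesicles form at the Golgi and endosomes. Most P4-ATPases leave the endoplasmic reticulum only when bound to a CDC50 protein, of which Tmem30a encodes CDC50A, whereas human ATP9A and ATP9B are known to reach their compartments without it. Oligodendrocytes, the cells that OPCs become, build myelin from very large amounts of membrane lipid.

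The windows of 250 bases before the start that the RefSeq-based promoter table uses for each gene (GRCm38.p6) are shown for Atp8a1 and Atp11a, whose RNA rose with IL4-EVs and MSC-EVs, and for Tmem30a, whose RNA was lower on all EV arrays. For Atp8a1 this start lies inside the outermost bounds of the gene. Each is written 5′ to 3′ on the strand of its gene, and capitals mark GC boxes (GGGCGG or its reverse complement CCGCCC) and the palindromic NRF1 motif, here without any ambiguous base.
Atp8a1, chr5:67847432-67847681, minus strand: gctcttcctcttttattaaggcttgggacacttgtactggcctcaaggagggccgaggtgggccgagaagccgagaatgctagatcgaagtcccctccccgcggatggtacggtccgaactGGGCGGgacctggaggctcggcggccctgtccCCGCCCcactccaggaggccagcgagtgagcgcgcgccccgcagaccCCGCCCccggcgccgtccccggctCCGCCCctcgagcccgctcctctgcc
Atp11a, chr8:12756766-12757015, plus strand: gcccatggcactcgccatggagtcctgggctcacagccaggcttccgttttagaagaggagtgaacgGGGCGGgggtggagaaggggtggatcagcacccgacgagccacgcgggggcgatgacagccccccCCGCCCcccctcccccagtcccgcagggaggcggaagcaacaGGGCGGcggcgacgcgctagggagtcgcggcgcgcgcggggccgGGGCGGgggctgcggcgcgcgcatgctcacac
Tmem30a, chr9:79793431-79793680, minus strand: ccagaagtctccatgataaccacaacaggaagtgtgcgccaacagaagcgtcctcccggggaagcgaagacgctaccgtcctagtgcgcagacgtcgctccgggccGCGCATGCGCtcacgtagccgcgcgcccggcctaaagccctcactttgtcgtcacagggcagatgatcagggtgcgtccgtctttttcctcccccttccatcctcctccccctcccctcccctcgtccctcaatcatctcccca

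The windows of Atp8a1 and Atp11a held 4 GC boxes each, none overlapping another, and their GC contents were 70.4% and 74.4%. A GC box was present in 32.7% of the 32851 windows of all genes, whose median GC content was 52.4%. The Tmem30a window had no GC box at a GC content of 62.8%, and it held 1 NRF1 motif, found in 0.782% of all windows. It also held 1 SOX motif (ACAAAG, 16.5% of windows), apart from the NRF1 motif and left in lower case. Searched on both strands, none of the 3 windows held a CCAAT box (CCAAT, 33.8%), a TATA box (TATAAA, 12.4%), an E-box (CACGTG, 6.02%), a cyclic AMP response element (TGACGTCA, 1.55%), an ETS motif (CCGGAAG, 6.91%) or a thyroid hormone receptor half-site (AGGTCA, 14%). These matches describe letters in a window and not binding. Windows of 5 of the 9 genes were searched. None was matched for Atp10b and Atp8a2, and Atp9b and Atp8b1 were left out with the other genes of chromosome 18. Windows of Atp9a and Atp11b, genes that passed in no comparison with CTRL, are not shown. The Atp11b window held 6 GC boxes and the 4 windows of Atp9a held 0 to 5, so GC boxes were not particular to the genes that rose.

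Values are log2 units of the deposited RMA intensities, a probe summary after background correction and quantile normalization, and levels of different genes cannot be ranked on this scale because each cluster has its own probes. All 6 measured OPC markers lay above a mean of 6 log2 units, the level used here to separate bright from dim clusters. Of 9 measured microglial markers none reached that level, with summed linear intensities between 112 and 124 in all groups, and none of 8 endothelial and fibroblast markers did. Among 6 astrocyte markers only Slc1a2 and Aldoc did, with summed intensities of 1464 to 1559 in CTRL, and of 1280 to 1300, 1124 to 1128 and 1083 to 1489 in the EV groups in the order just given for their preparation (i-EVs first, MSC-EVs last, as in all triplets of values below), while Gfap and Gjb6 were at the dim end. Aldoc, at a mean of 10.07 log2 units against 6.85 for Slc1a2, gave most of the astrocyte sum. Of the 6 astrocyte genes none passed a limma adjusted p of 0.05 with i-EVs. With IL4-EVs 1 fell, and with MSC-EVs 1 rose and 1 fell. Among 9 neuronal markers 4 reached a mean of 6, with summed intensities of 8346 to 8496 in CTRL and of 7475 to 8508, 8316 to 8514 and 8397 to 9137 in the EV groups. Most of that sum came from Map2, and Snap25 and Nefl fell by 0.56 and 0.40 with IL4-EVs (limma adjusted p 0.00748 and 0.0436) and by 0.44 and 0.55 with MSC-EVs (adjusted p 0.0135 and 0.00504), while none of the 9 rose. One array stood apart, MSC-EVs replicate 3, with Mki67 at 16.69 against 14.28 to 14.92 on the other arrays and the precursor gene Bmp4 at 7.19 against 10.56 to 11.07. Of 19 very long mRNAs 3, 15 and 17 rose in the EV groups and none fell (median log2 change 0.34, 0.62 and 0.96). Of 36 nuclear subunits of oxidative phosphorylation 0, 29 and 31 fell and none rose (−0.25, −0.47 and −0.53), with 29 of them at an unadjusted p under 0.05 for i-EVs. The part of these shifts, and of the astrocyte and neuronal markers, in the results for flippases and the other gene lists was not tested.

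Atp10b was higher on each of the 9 arrays of EV-treated OPCs than on any CTRL array. In human cells ATP10B is a flippase of late endosomes and lysosomes that moves glucosylceramide and phosphatidylcholine. The mouse gene lies at chr11:43012164-43262285 (GRCm38.p6). In CTRL its level was 8.16, 8.33 and 8.24 log2 units in replicates 1, 2 and 3 (mean 8.24 ± 0.0869, SD, n = 3). With i-EVs Atp10b measured 8.95, 8.80 and 8.98 (8.91 ± 0.097, n = 3). The gap between the highest CTRL array and the lowest i-EVs array was wider than the spread inside either group. With IL4-EVs the arrays read 8.76, 8.90 and 8.82 (8.83 ± 0.0694, n = 3), and with MSC-EVs 8.94, 9.06 and 8.88 (8.96 ± 0.092, n = 3). The 3 EV groups overlapped one another throughout. Differences from CTRL were 0.67 with i-EVs (1.59-fold), 0.58 with IL4-EVs (1.5-fold) and 0.72 with MSC-EVs (1.65-fold), each with a standard error of 0.0775 in the linear model.

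The order of the Atp10b means was CTRL, IL4-EVs, i-EVs and MSC-EVs, and only the step from CTRL to IL4-EVs exceeded the spread of the arrays. Between the EV groups the Atp10b differences were −0.08 (IL4-EVs against i-EVs), 0.05 (MSC-EVs against i-EVs) and 0.14 (MSC-EVs against IL4-EVs). Because the number of changed genes differed widely between the EV groups, the place of Atp10b among the 65535 clusters differed as well. Sorted from the highest positive change, it stood at 140 for i-EVs, 812 for IL4-EVs and 1584 for MSC-EVs. Its own change was of similar size under all EVs.

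**Figure D1:**
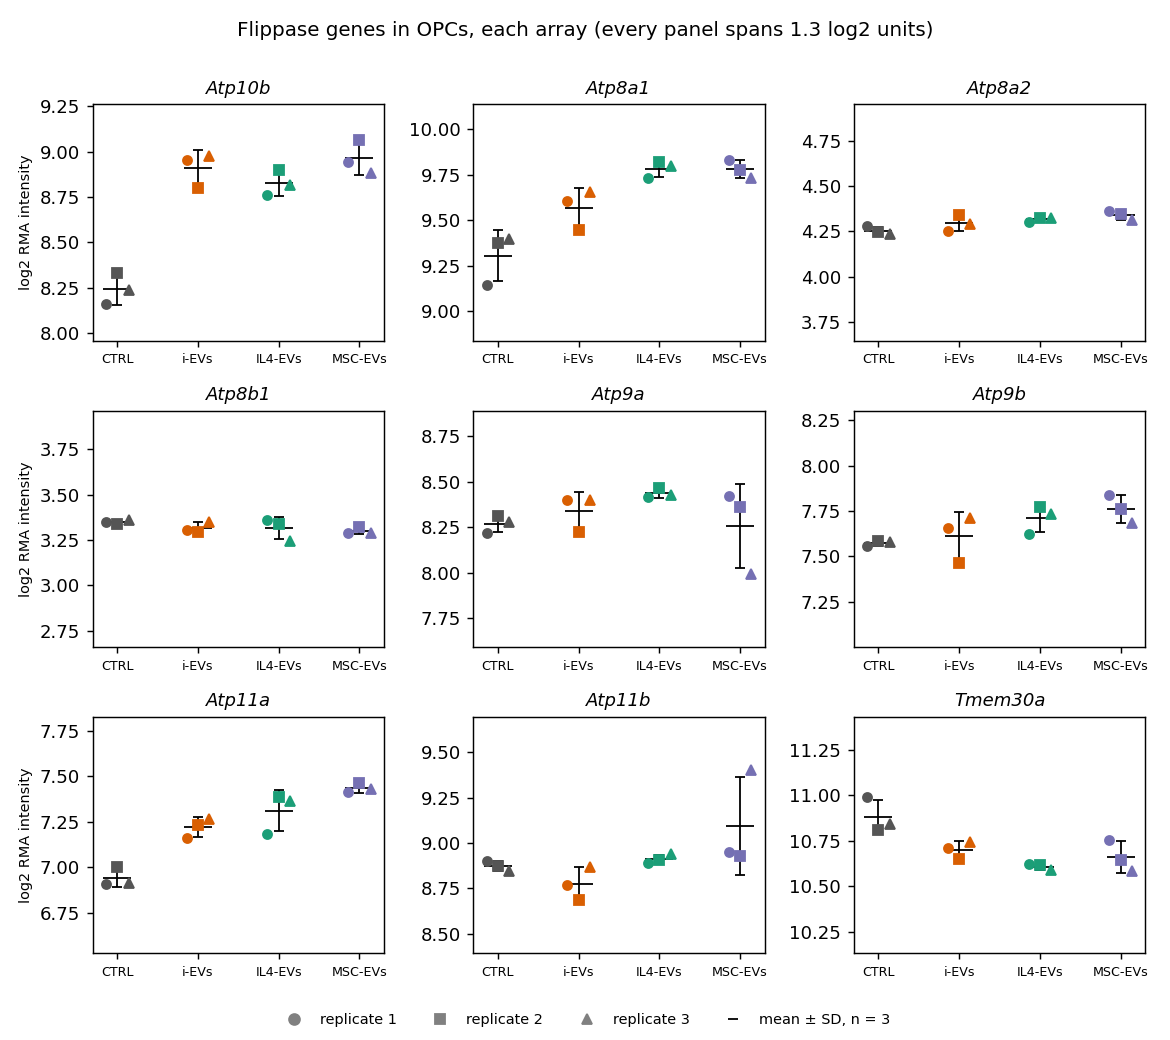
Levels of the 9 flippase genes on each array, in log2 RMA intensity on the vertical axes, by group on the horizontal axes. Symbols give the replicate, lines the mean and SD of 3 arrays, and every panel spans the same number of log2 units; Atp10b, Atp8a1 and Atp11a lie higher with each type of EVs than in CTRL, Tmem30a lies lower, and MSC-EVs replicate 3 departs from its group for Atp9a and Atp11b.

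The other 8 flippase genes changed less than Atp10b, a contrast without weight because Atp10b was chosen for its difference from CTRL. The direction of their changes depended on the gene. In the limma fit with Benjamini-Hochberg adjustment over all clusters, none of the 8 passed an adjusted p of 0.05 with i-EVs, where 0.476% of all clusters passed, and 3 of the 8 had an unadjusted p under 0.05, as did 13.3% of clusters. With IL4-EVs 3 passed, Atp8a1 and Atp11a upward and Tmem30a downward, beside 5.74% of all clusters (1.61% upward and 4.13% downward). With MSC-EVs 2 passed, Atp8a1 and Atp11a upward, beside 12.6% of all clusters (5.86% upward and 6.75% downward). Bright clusters passed far more often, 2.11%, 24.4% and 41.5% of those with a mean of at least 6 log2 units in the 3 comparisons, and 6 of the 8 genes are in this class. With IL4-EVs 6.47% of bright clusters rose and 18% fell, and with MSC-EVs 15.3% rose and 26.2% fell. For MSC-EVs the share of flippase genes that passed in either direction was therefore no higher than that of bright clusters. Both genes that passed there were bright and rose, beside the 15.3% of bright clusters that rose. They are too few to set against that share. The comparisons share the CTRL arrays, so the calls with IL4-EVs and MSC-EVs are not independent of each other. The largest change from CTRL among the 8 genes was 0.49.

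Counting instead the genes whose 3 arrays lay entirely outside the range of the CTRL arrays, 2 of the 8 were above and 1 below with i-EVs, beside 9.52% and 9.98% of all clusters. With IL4-EVs 5 were above and 1 below (11.8% and 14.6% of clusters), and with MSC-EVs 5 above and 2 below (12.4% and 14.5%). Most of these gaps were small, as the values of the single genes show. The median log2 change of the 8 genes was 0.04, 0.10 and 0.14 in the 3 EV groups, against 0.02, 0.00089 and −0.01 for all clusters and −0.07, −0.08 and −0.09 for bright clusters.

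Atp8a1 rose in the 2 groups with the most changed clusters, IL4-EVs and MSC-EVs. It encodes a phosphatidylserine flippase of recycling endosomes and the Golgi, and the gene lies at chr5:67618139-67847484. CTRL replicates 1, 2 and 3 had Atp8a1 at 9.14, 9.37 and 9.40 (9.31 ± 0.14, n = 3). With i-EVs the values were 9.60, 9.44 and 9.65 (9.57 ± 0.109, n = 3), which lay above CTRL by a margin smaller than the spread within CTRL. IL4-EVs gave 9.73, 9.82 and 9.80 (9.78 ± 0.0466, n = 3). MSC-EVs gave 9.83, 9.78 and 9.73 (9.78 ± 0.0485, n = 3). Both of these groups lay above every i-EVs and CTRL array and could not be distinguished from each other. Relative to CTRL the Atp8a1 difference was 0.26 with i-EVs (limma, SE 0.0817, adjusted p 0.166), 0.48 with IL4-EVs (1.39-fold, adjusted p 0.00615) and 0.48 with MSC-EVs (1.39-fold, adjusted p 0.00312). CTRL replicate 1 was the lowest of the 12 arrays for this gene, and without it the Atp8a1 differences were 0.18, 0.40 and 0.40, with the last 2 still past the threshold.

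Atp11a rose in the same comparisons. It encodes a flippase that returns phosphatidylserine and phosphatidylethanolamine to the inner face of the plasma membrane, and it lies at chr8:12757016-12868728. In CTRL Atp11a stood at 6.91, 7.0 and 6.92 (6.94 ± 0.0529, n = 3). Values of 7.16, 7.23 and 7.27 were measured with i-EVs (7.22 ± 0.0545, n = 3). IL4-EVs arrays read 7.18, 7.39 and 7.37 (7.31 ± 0.111, n = 3), with replicate 1 inside the range of the i-EVs group. MSC-EVs arrays read 7.41, 7.46 and 7.43 (7.44 ± 0.0247, n = 3), above all arrays of the other groups. The lowest mean was that of CTRL and the highest that of MSC-EVs, and the 2 groups between them did not differ beyond their spread. The Atp11a difference from CTRL was 0.28 with i-EVs (limma, SE 0.0682, adjusted p 0.086), 0.37 with IL4-EVs (1.29-fold, adjusted p 0.0091) and 0.49 with MSC-EVs (1.41-fold, adjusted p 0.00107). The calls for Atp8a1 and Atp11a with IL4-EVs and MSC-EVs held when any single array was left out, with highest adjusted p-values of 0.0343 and 0.0142 for Atp8a1 and 0.0497 and 0.00739 for Atp11a. With i-EVs the call for Atp11a depended on the setting, since it passed at an adjusted p of 0.0447 after cyclic loess scaling and of 0.0232 when dim clusters were left out.

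Tmem30a moved the other way. The gene, at chr9:79768941-79793430, encodes the CDC50A subunit shared by Atp8a1, Atp8a2, Atp8b1, Atp11a, Atp11b and, in human cells, ATP10B. CTRL arrays had Tmem30a at 10.99, 10.81 and 10.84 (10.88 ± 0.0949, n = 3). With i-EVs it was 10.71, 10.65 and 10.74 (10.70 ± 0.0486, n = 3). With IL4-EVs it was 10.62, 10.61 and 10.59 (10.61 ± 0.0186, n = 3), and with MSC-EVs 10.76, 10.65 and 10.58 (10.66 ± 0.0885, n = 3). Every EV array was below every CTRL array, and the IL4-EVs arrays were below all i-EVs arrays by a narrow gap. The Tmem30a difference from CTRL was −0.18 with i-EVs (limma, SE 0.069, adjusted p 0.271), −0.27 with IL4-EVs (1.21-fold lower, adjusted p 0.0409) and −0.22 with MSC-EVs (adjusted p 0.0618). The call with IL4-EVs rested on a narrow margin. It was lost when the arrays were quantile normalized again (−0.16, adjusted p 0.254), after cyclic loess (−0.13, adjusted p 0.309), with an intensity trend in the variance (adjusted p 0.0609) and without any 1 of 9 of the 12 arrays, which were all CTRL and IL4-EVs arrays, i-EVs replicates 1 and 3 and MSC-EVs replicate 2 (adjusted p 0.0526 to 0.176). With MSC-EVs the Tmem30a call was gained without MSC-EVs replicate 1 (adjusted p 0.0415) and without dim clusters (adjusted p 0.0196).

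For Atp11b and Atp9a the MSC-EVs group was split by its replicate 3. Atp11b encodes a relative of Atp11a that in human cells resides on endosomes. Atp11b measured 8.90, 8.87 and 8.84 in CTRL, 8.77, 8.68 and 8.87 with i-EVs, and 8.89, 8.91 and 8.94 with IL4-EVs. With MSC-EVs it read 8.95, 8.93 and 9.40 (9.09 ± 0.268, n = 3), so that replicate 3 was the highest of all 12 arrays for this gene. The Atp11b difference from CTRL was 0.22 with MSC-EVs (limma, SE 0.109, adjusted p 0.263) and fell to 0.07 without that array. The corresponding values were −0.10 with i-EVs and 0.04 with IL4-EVs (adjusted p 0.78 and 0.941).

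Atp9a, whose product acts in endosomal recycling in human cells, behaved in the opposite way on the same array. CTRL arrays had Atp9a at 8.22, 8.31 and 8.28, i-EVs arrays at 8.40, 8.22 and 8.40, and IL4-EVs arrays at 8.42, 8.46 and 8.43. MSC-EVs arrays read 8.42, 8.36 and 7.99 (8.26 ± 0.232, n = 3), with replicate 3 the lowest of all 12. The difference of MSC-EVs from CTRL was −0.01 (limma, SE 0.101, adjusted p 0.978) and became 0.12 without replicate 3. With IL4-EVs all 3 arrays lay above CTRL, yet the Atp9a difference of 0.17 had an adjusted p of 0.493.

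Atp9b, which encodes a P4-ATPase of the trans-Golgi network, differed little. It lay between 7.56 and 7.59 in CTRL, 7.47 and 7.71 with i-EVs, 7.62 and 7.77 with IL4-EVs and 7.68 and 7.84 with MSC-EVs. Its arrays with IL4-EVs and MSC-EVs were above those of CTRL, and the i-EVs arrays straddled them. The Atp9b differences of 0.04, 0.14 and 0.19 (limma, SE 0.0765) had adjusted p-values of 0.895, 0.446 and 0.158. With MSC-EVs the gene passed after cyclic loess (0.26, adjusted p 0.018) and without both MSC-EVs replicate 3 and i-EVs replicate 2, each the array of its group farthest from the other arrays of that group (0.23, adjusted p 0.0486).

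Atp8a2 and Atp8b1 were dim on these arrays. Atp8a2, a phosphatidylserine flippase best known from neurons, ranged from 4.24 to 4.36 over the 12 arrays. Atp8b1, known from liver where its loss in humans impairs bile flow, ranged from 3.25 to 3.36. The largest difference from CTRL was 0.09 for Atp8a2 and −0.05 for Atp8b1, both with MSC-EVs, and none passed. At such intensities a change of the transcript may not be visible. The intervals of the Atp8a2 and Atp8b1 differences span at most 0.20 above and 0.17 below CTRL on this scale.

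**Figure D2:**
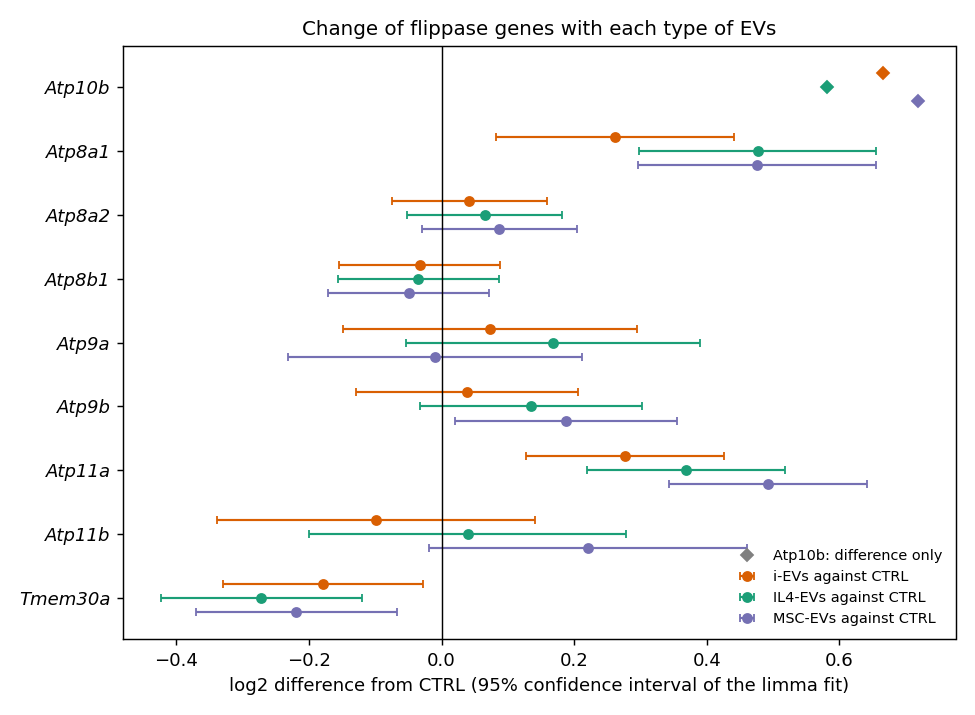
Log2 difference of each flippase gene from CTRL on the horizontal axis, by type of EVs. Circles with bars give the difference and its 95% confidence interval in the limma fit (unadjusted), and diamonds give Atp10b as a difference alone; Atp8a1 and Atp11a lie right of 0 with each type of EVs, and Tmem30a lies left of 0.

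The EV groups were also compared with one another, 3 comparisons for each of the 8 genes. None of the 8 passed an adjusted p of 0.05 between IL4-EVs and i-EVs (0% of all clusters passed), between MSC-EVs and i-EVs (1.45%) or between MSC-EVs and IL4-EVs (0.00153%). At an unadjusted p under 0.05 there were 1, 3 and 0 of the 8, beside 7.56%, 16.3% and 8.91% of clusters. The arrays of 3 genes lay wholly above and of 1 below i-EVs for IL4-EVs (5.55% and 9.11% of clusters), of 3 above and 0 below i-EVs for MSC-EVs (8.11% and 9.92%), and of 1 above and 0 below IL4-EVs for MSC-EVs (7.19% and 6.87%). Atp8a1 was higher with IL4-EVs than with i-EVs by 0.22 (95% interval 0.04 to 0.39, limma adjusted p 0.589). Between MSC-EVs and i-EVs its difference was 0.21 (0.04 to 0.39, adjusted p 0.217). Neither group overlapped the i-EVs arrays, and neither difference passed the correction over all clusters. For Atp11a the difference between MSC-EVs and i-EVs was 0.22 (0.07 to 0.36, limma adjusted p 0.14), again with groups that did not overlap. The interval for Tmem30a between MSC-EVs and i-EVs ran from −0.19 to 0.11. That between IL4-EVs and i-EVs ran from −0.24 to 0.06. A stronger response of Atp8a1 or Atp11a to one type of EVs than to another was not established at this number of arrays, and the intervals do not show that the responses were alike.

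Beyond group means, some flippase genes varied with Atp10b from array to array and others did not. Over the 12 arrays Pearson's r with Atp10b was 0.90 for Atp11a, 0.85 for Atp8a1 and −0.77 for Tmem30a, values that contain the difference between CTRL and EV groups shared by all of them. After subtracting group means, r with Atp10b was 0.51 for Atp11a, 0.74 for Atp8a1, 0.72 for Atp9b and 0.66 for Atp9a, but −0.06 for Tmem30a and −0.24 for Atp11b. CTRL replicate 1 had the lowest level of all 12 arrays for Atp10b, Atp8a1 and Atp11a and the highest for Tmem30a. The array i-EVs replicate 2 lay farther from its group than the other i-EVs arrays did. On it 6 of the 7 bright genes (all but Atp11a) were each at the lowest level of the 3 i-EVs arrays. The share of all bright clusters that were lowest on that array was not computed, so this count says nothing particular about flippase genes. These correlations describe arrays that share hybridization, normalization and group, and no p is attached to them. They are not set beside the values of genes in general, so they say nothing particular about flippase genes.

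Among 6946 genes with 1 symbol and a mean of at least 6 log2 units, the genes whose pattern over the 12 arrays was most like that of Atp10b were Npc1 (r 0.98), Ttyh3 (0.97), Mon2 (0.97), Pdcd11 (0.96) and Satb1 (0.96). Their r after removal of group means was 0.86, 0.78, 0.93, 0.73 and 0.87. Npc1, which encodes the transporter that exports cholesterol from late endosomes and lysosomes, had a mean of 10.61 in CTRL and of 11.09, 11.13 and 11.19 in the EV groups. Ttyh3, a member of the tweety family of membrane proteins, had means of 12.62 in CTRL and 13.17, 13.18 and 13.24 with EVs. Mon2 had means of 9.21 in CTRL and 9.65, 9.73 and 9.76 with EVs. Because they were chosen by likeness over the same arrays, their difference between CTRL and EV groups follows from the choice. Their r after removal of group means is also in part fixed by it, and its spread over the 6946 genes is not given. Atp11a stood at place 103 and Atp8a1 at 263 in this order.

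Mon2 belongs to the proteins that act with flippases at the Golgi and on endosomes. In yeast the flippase Neo1, a relative of ATP9A and ATP9B, works with Mon2 and Dop1. The yeast flippase Drs2 works with the small GTPase Arl1 and a guanine nucleotide exchange factor of the broad family that also holds Arfgef1 and Arfgef2. These last genes are listed as members of that family and not as its direct counterparts. Snx3 and the retromer proteins Vps26, Vps29 and Vps35 return cargo from endosomes to the Golgi. Of these 10 partner genes, with IL4-EVs 4 rose and 5 fell at an adjusted p under 0.05, and with MSC-EVs also 4 rose and 5 fell. Of the 10 genes 9 were bright, and among all bright clusters 6.47% rose and 18% fell with IL4-EVs and 15.3% rose and 26.2% fell with MSC-EVs. With i-EVs, where 2.11% of bright clusters passed, Mon2 rose and Arl1, Vps26a and Vps35 fell, but no gene fell there after repeated quantile normalization, with an intensity trend in the variance, with the 2 groups alone or without both MSC-EVs replicate 3 and i-EVs replicate 2. No gene rose there with the intensity trend or with the 2 groups alone. After cyclic loess and without dim clusters 3 rose. With any single array left out the count with i-EVs was 0 to 1 upward and 0 to 4 downward. In these fits the rise was kept only without i-EVs replicate 1 or MSC-EVs replicate 3. The falls of Arl1 and Vps35 with i-EVs were lost without any 1 of the CTRL and IL4-EVs arrays, i-EVs replicates 2 and 3 and MSC-EVs replicate 1 (adjusted p up to 0.167). Their median log2 change was 0.00299, −0.05 and −0.11 in the EV groups, beside members that moved in opposite directions.

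4 genes of large scaffold proteins and exchange factors passed upward with IL4-EVs and MSC-EVs, a grouping made after their values were seen. In these comparisons 15 and 17 of 19 very long mRNAs rose, and 29 and 31 of 36 nuclear subunits of oxidative phosphorylation fell. The part of these shifts in the rises and falls of the partner genes was not tested. Mon2 changed by 0.45, 0.53 and 0.56 in the EV groups (limma, SE 0.0829, adjusted p 0.0462, 0.0042 and 0.00155). Dop1a, named after its values were seen like Arfgef1, Arfgef2, Vps26a and Vps29, changed by 0.25, 0.45 and 0.59 (SE 0.0763, adjusted p 0.155, 0.00558 and 0.000809). Arfgef1 and Arfgef2 rose by 0.36 and 0.42 with IL4-EVs and by 0.48 and 0.50 with MSC-EVs. With i-EVs neither passed (adjusted p 0.448 and 0.101), and Dop1b did not pass in any of the comparisons with CTRL.

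The genes of the small GTPase, of the sorting nexin and of the 3 retromer proteins passed downward with IL4-EVs and MSC-EVs, again grouped after their values were seen. Arl1 levels were 10.71, 10.55 and 10.57 in CTRL, 10.26, 10.08 and 10.10 with i-EVs, 9.94, 9.90 and 10.02 with IL4-EVs and 10.03, 10.09 and 9.95 with MSC-EVs. No EV array of Arl1 came near the CTRL range. The Arl1 difference from CTRL was −0.46, −0.65 and −0.59 (limma, SE 0.0731, adjusted p 0.0361, 0.0013 and 0.000668). Vps35, the core of retromer, differed by −0.56, −0.76 and −0.74 (SE 0.0909, adjusted p 0.0372, 0.00166 and 0.000623). Snx3 differed by −0.16, −0.34 and −0.46 (SE 0.0593, adjusted p 0.25, 0.00637 and 0.000767), and Vps26a and Vps29 fell by 0.51 and 0.52 with IL4-EVs and by 0.51 and 0.44 with MSC-EVs. With i-EVs Vps29 did not pass (adjusted p 0.0885). With IL4-EVs the fall of Snx3 did not pass after repeated quantile normalization (−0.19, adjusted p 0.0739) or cyclic loess (−0.19, adjusted p 0.0757).

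**Figure D3:**
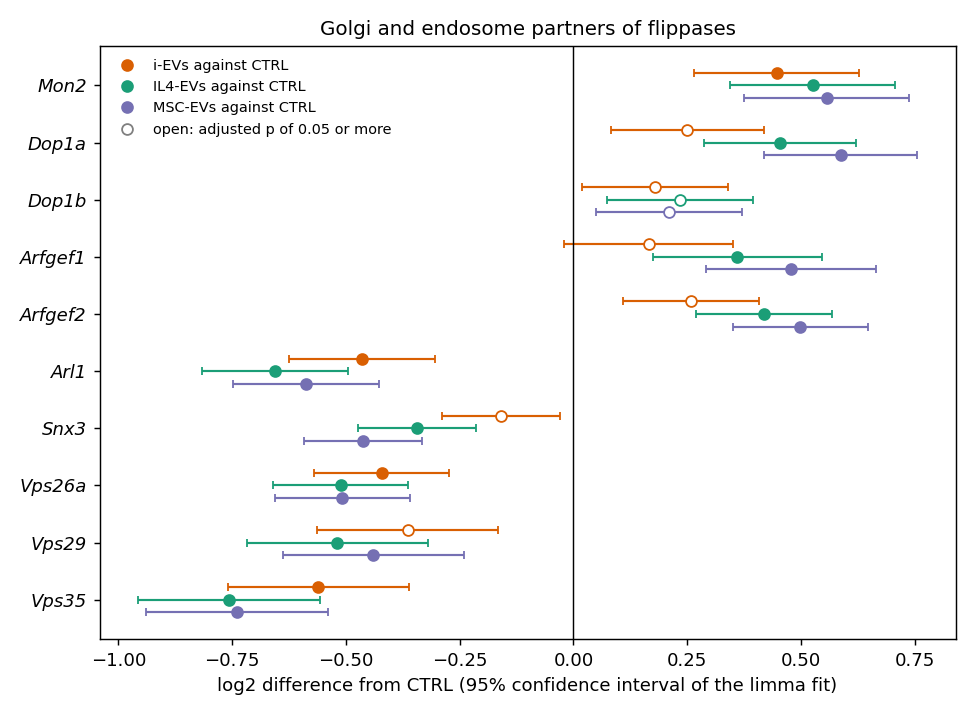
Log2 difference from CTRL, with the 95% confidence interval of the limma fit, for 10 partner genes of flippases at the Golgi and endosomes, by type of EVs. Filled circles passed an adjusted p of 0.05 and open circles did not; Mon2, Dop1a, Arfgef1 and Arfgef2 lie right of 0 and Arl1, Snx3 and the 3 retromer genes lie left of it.

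**Figure D4:**
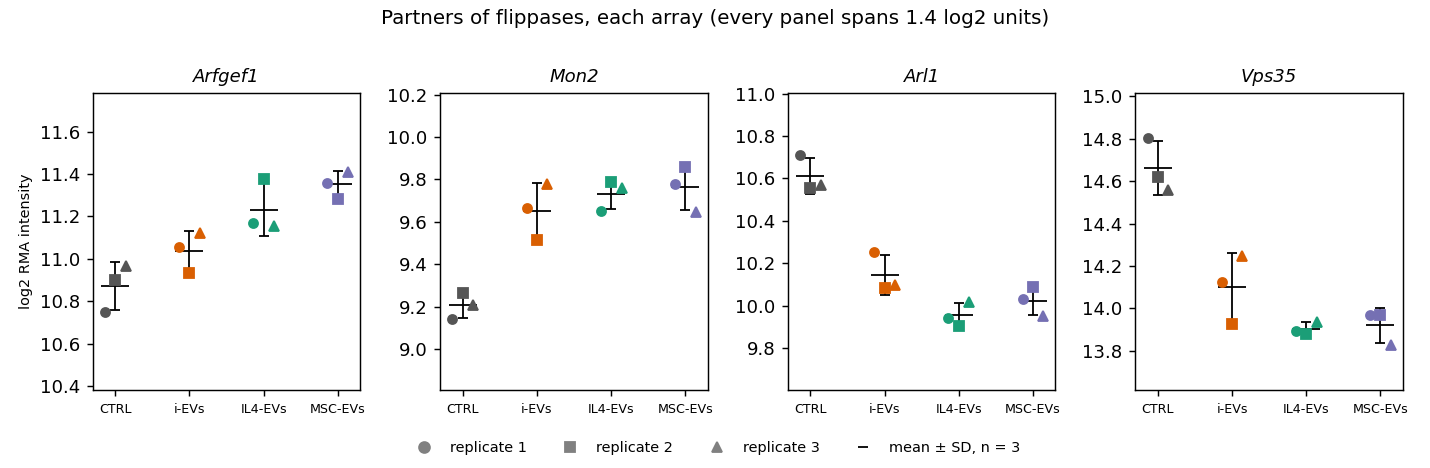
Levels of Arfgef1, Mon2, Arl1 and Vps35 on each array, in log2 RMA intensity, by group. Symbols give the replicate and lines the mean and SD of 3 arrays; Mon2 lies higher and Arl1 and Vps35 lie lower on every EV array than on any CTRL array.

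Other genes of phospholipid sidedness were counted in lists. The shares of all clusters that passed, given above, were 0.476%, 5.74% and 12.6% in the EV groups, and 13.3% with i-EVs and 16.6% with IL4-EVs had an unadjusted p under 0.05. The other P4-ATPase and CDC50 genes were all dim, and of 8 measured only the CDC50 gene Tmem30b passed, falling by 0.36 with MSC-EVs (limma adjusted p 0.0114) at levels between 2.83 and 3.41, a call lost when CTRL and MSC-EVs were fitted without the other groups (adjusted p 0.0714). Among 5 genes of the related P5-type ATPases 1 rose with IL4-EVs and with MSC-EVs, Atp13a3, a polyamine transporter, by 0.35 and 0.52 (adjusted p 0.0411 and 0.00285), and its call with IL4-EVs was lost without any 1 of the CTRL and IL4-EVs arrays and of i-EVs replicates 1 and 3 (adjusted p up to 0.17), and with replicate number as a block (0.0506). Of 16 scramblase genes, whose products let phospholipids pass in both directions, none passed with i-EVs or IL4-EVs (2 and 4 at an unadjusted p under 0.05). With MSC-EVs the scramblase gene Xkr4 rose by 0.33 (adjusted p 0.00902) and Tmem41b, a scramblase of the endoplasmic reticulum, fell by 0.47 (adjusted p 0.0458). The call for Tmem41b held in only 2 of the 12 fits that left out 1 array, those without MSC-EVs replicates 1 or 2 (adjusted p up to 0.169 in the others), while that for Xkr4 held in all 12. With replicate number as a block Tmem41b had an adjusted p of 0.052. After cyclic loess Xkr4 also passed with i-EVs (0.32, adjusted p 0.0447) and IL4-EVs (0.24, adjusted p 0.0345), and with i-EVs it passed when dim clusters were left out (adjusted p 0.0305).

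Among 11 genes of ABC transporters that move lipids, 3 rose with IL4-EVs and with MSC-EVs and none fell. Of all clusters 1.61% and 5.86% rose in these comparisons. The 3 genes belonged to the 5 bright ones of the list, and of all bright clusters 6.47% and 15.3% rose. Abca2, an endolysosomal transporter known from oligodendrocytes, rose by 0.40 and 0.39 (limma adjusted p 0.0227 and 0.0136). Abca3, the lipid transporter of lung lamellar bodies, rose by 0.35 and 0.35 (0.024 and 0.0124), and Abcc1, a broad exporter of the plasma membrane, by 0.35 and 0.30 (0.0312 and 0.0335). With i-EVs none of the 11 passed, with 5 at an unadjusted p under 0.05, but 3 rose when dim clusters were left out (adjusted p 0.0406, 0.0462 and 0.0386 for the same genes in turn) and Abca3 after cyclic loess (0.0461). The calls with MSC-EVs were lost without CTRL replicate 1 for all 3 genes (adjusted p 0.0622 for Abca2, 0.0548 for Abca3 and 0.113 for Abcc1), and for Abcc1 also without CTRL replicates 2 or 3, IL4-EVs replicate 3 or MSC-EVs replicates 1 or 2. With IL4-EVs those of Abca2 and Abca3 were lost without CTRL replicates 1 or 3 or IL4-EVs replicates 2 or 3, and that of Abcc1 without any CTRL or IL4-EVs array (adjusted p up to 0.12). Of 8 genes of phosphatidylserine and phosphatidylethanolamine synthesis none passed with i-EVs (1 unadjusted), but Cept1 fell there without dim clusters (−0.24, adjusted p 0.029). With IL4-EVs Ptdss2 did not pass, but it fell past the threshold without dim clusters (adjusted p 0.0197) and with array weights (0.0205). It also did so without both MSC-EVs replicate 3 and i-EVs replicate 2 (0.0257). Cept1, which makes phosphatidylethanolamine and phosphatidylcholine, fell by 0.27 with IL4-EVs and 0.28 with MSC-EVs (adjusted p 0.0329 and 0.0151), and Ptdss2, a phosphatidylserine synthase, fell by 0.25 with MSC-EVs (adjusted p 0.0192). The fall of Cept1 was lost without CTRL replicates 1 or 2 in both comparisons and with IL4-EVs also without any of their arrays (adjusted p up to 0.125), with replicate number as a block (0.0532) and after either rescaling (0.194 and 0.107 for quantile and loess), and that of Ptdss2 without CTRL replicates 2 or 3 or MSC-EVs replicate 3 (adjusted p up to 0.0709). A further list of 9 genes covered the synthesis, breakdown and transfer of glucosylceramide, a lipid moved by human ATP10B, and related steps such as ceramide breakdown. None of the 9 passed with i-EVs or IL4-EVs (2 unadjusted in each), but this depended on the setting for B4galt6 and, with IL4-EVs, for Asah1. B4galt6 passed with i-EVs after cyclic loess (adjusted p 0.0447) and without dim clusters (0.0313). With IL4-EVs B4galt6 passed after repeated quantile normalization (0.0225), cyclic loess (0.0135), without dim clusters (0.0225), with array weights (0.0269) and without both MSC-EVs replicate 3 and i-EVs replicate 2 (0.0433). Asah1 fell past the threshold with IL4-EVs without dim clusters (adjusted p 0.0471), with the 2 groups alone (0.0402) and with array weights (0.0414). It also did so without both of these arrays (0.0236) and without MSC-EVs replicate 3 alone (0.0347). With MSC-EVs B4galt6, which turns glucosylceramide into lactosylceramide, rose by 0.40 (adjusted p 0.00918) and Asah1, the lysosomal acid ceramidase, fell by 0.33 (adjusted p 0.0256). The call for B4galt6 held without any single array, and that for Asah1 was lost without CTRL replicates 1 or 3 or MSC-EVs replicate 3 (adjusted p up to 0.0982) and after repeated quantile normalization (0.123) or cyclic loess (0.131).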

How the data were processed

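The authors deposited RMA intensity values of 12 Clariom D arrays, from perfect-match probes, background corrected, quantile normalized and summarized to 65535 transcript clusters, on a linear scale. TAC 4.0 appears in the methods and Affymetrix Expression Console in the submitters' processing notes, and for the annotation of the array the genome build is not given in the sources. The deposited values end within chromosome 19 by its cluster names, so genes beyond that point were not analysed here. Intensities were turned to log2 without a pseudocount. Arrays have no read depth, and their number limits the precision.

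Group means were fitted with limma 3.58.1 in R 4.3.3, leaving 8 residual degrees of freedom, and p-values were adjusted by Benjamini-Hochberg over all clusters within each of 6 comparisons. The procedure was tested on simulated data. Genes and gene lists were chosen with earlier results of these data known. Named are all 9 flippase genes, up to 3 genes of each other list past an adjusted p of 0.05 in a comparison with CTRL with the smallest p for MSC-EVs, and the 5 genes most like Atp10b by Pearson's r among clusters of 1 symbol and a mean of at least 6 log2 units (no predicted genes, pseudogenes, microRNAs or small nucleolar RNAs). Others are said to be named after their values were seen. Promoter windows are those of RefSeq (GRCm38.p6). Alternatives were other scalings, a filter on dim clusters, other variance settings, fewer groups, a replicate block, array weights, another source table and leaving out each array. Same-numbered arrays deviated together weakly at most (18 pairs, r −0.10 to 0.14, 3 over 0.1). All pairs of replicate 1 arrays were positive (r 0.07 to 0.14), and those over 0.1 were among them. The main fit did not use numbers to pair samples. Figures were drawn with matplotlib 3.10.9 and pandas 2.3.3 (Python 3.11.15).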

Additional observations from a re-analysis of the deposited data

How the results depend on the processing

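No direction of a passing result reversed under any alternative. With i-EVs the count of the 8 flippase genes past the threshold went from 0 to 1 after cyclic loess (Atp11a) and to 2 when clusters with a mean under 6 log2 units were left out (Atp8a1 and Atp11a). Leaving out 1 array at a time gave 0 with i-EVs, 2 to 3 with IL4-EVs, 2 to 3 with MSC-EVs and 0 between EV groups. Over the alternatives tried the Atp10b difference from CTRL ranged from 0.62 to 0.75 (i-EVs), 0.54 to 0.68 (IL4-EVs) and 0.67 to 0.81 (MSC-EVs). With replicate number added as a block, the counts of passing flippase genes stayed at 0, 3 and 2 against CTRL, while those of all clusters went from 312 to 876, 3762 to 3843 and 8267 to 8308. The labels do not say that a number marks a shared batch. Cyclic loess moved the median of bright clusters against CTRL by 0.09, 0.10 and 0.09. Leaving out both MSC-EVs replicate 3 and i-EVs replicate 2 was chosen after seeing the data. Taking the mean of all clusters of a gene, or the second deposited table, could not move a flippase value, since each gene has 1 cluster and the tables hold equal values. With CTRL and MSC-EVs fitted alone, the calls of Abca2, Abcc1, Ptdss2, Cept1, Asah1 and Tmem41b with MSC-EVs were lost (adjusted p 0.0602, 0.131, 0.0648, 0.0699, 0.108 and 0.164). Among the named genes of other lists the block ended the calls of Atp13a3 and Cept1 with IL4-EVs and of Tmem41b with MSC-EVs. A planned description by protein length was not run. Dim clusters carry little signal over background, which limits what can be said of Atp8a2 and Atp8b1.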
